A study of Mus musculus with 14 samples.

Results

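The genes described here encode the voltage-gated sodium channels, the voltage-gated calcium channels and the hyperpolarization-activated HCN channels of mouse cortex, with their auxiliary subunits. They were taken by gene symbol alone from a table of 23412 genes: every Scn alpha and beta gene and every Cacna1, Cacna2d, Cacnb and Hcn gene, which gave 36 genes. Of these, 24 encode pore-forming subunits (10 sodium, 10 calcium and 4 HCN) and 12 encode auxiliary subunits (4 sodium channel beta, 4 calcium channel alpha2delta and 4 calcium channel beta). The sodium channel gene Scn2a stands in the table as Scn2a1.

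A voltage-gated channel is built around a large pore-forming subunit that senses the membrane potential. Sodium channels carry the upstroke of the action potential, calcium channels turn depolarization into calcium entry at synapses, dendrites and the soma, and HCN channels pass an inward current on hyperpolarization that shapes resting potential and rhythmic firing. Sodium channel beta subunits alter gating and bind adhesion partners, alpha2delta subunits carry calcium channels to the surface, and cytoplasmic beta subunits stabilise the calcium channel pore and set its gating. FMRP, the product of Fmr1, is an RNA-binding protein that associates with long neuronal mRNAs, among them ion channel mRNAs, and its loss causes fragile X syndrome.

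The study sequenced ribosome-protected footprints and rRNA-depleted total RNA from the cortex of Fmr1 knockout mice (genotype Fmr1X-Y; Rpl22flox/flox;CamKCre+, called KO here) and of controls (Rpl22flox/flox;CamKCre+). Both groups therefore carried the floxed Rpl22 allele and the CamK Cre transgene, which is driven in forebrain excitatory neurons, and the labels give no age. The RNA libraries came from 4 control mice (1, 3, 6 and 8) and 4 KO mice (2, 4, 5 and 7), and the footprint libraries from 3 control mice (1, 3 and 9) and 3 KO mice (2, 4 and 10), so that mice 1 to 4 gave both. The protocols describe total RNA and monosomes of brain lysates, so the values are those of whole tissue, in which fewer cells of a type and less RNA per cell cannot be told apart. A translation efficiency change (TE) is the change in footprints relative to the change in RNA.

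Gene totals were 8847547 to 11371851 counts in the RNA libraries and 4124065 to 6033030 in the footprint libraries. Fmr1 itself was at 71.4 to 90.0 CPM (counts scaled to library size) in the control RNA libraries and 18.1 to 23.4 in the KO libraries, and at 111 to 115 against 5.84 to 8.56 in footprints. The RNA libraries of KO mice 2, 4 and 7 stood apart by how little they differed from each other: their pairwise chi-square per degree of freedom over genes was 1.18 to 1.32, where a value of 1 is sampling noise, against 5.64 to 6.02 for their pairs with KO mouse 5 and 1.99 to 11.8 for control pairs. Footprint pairs of 1 genotype were at 1.15 to 1.42. Footprint pairs came as close to sampling noise, so in both assays the adjusted p-values rest on libraries that may not vary as separate mice would, and the called RNA changes named below are also given with those libraries summed. Markers of excitatory cortical neurons were present in every library, with a summed level over 10 genes of 2741 to 3007 RNA CPM in controls and 3402 to 3681 CPM in KO. Immediate early genes, which neuronal firing induces, moved with genotype: 11 of 12 were higher in KO footprints (of all genes 12%), with a summed level of 807 to 845 CPM in controls and 2598 to 2669 CPM in KO, and their part in the channel results was not tested.

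All 8 Cacna1 genes tested in footprints had a lower fitted value in KO than in control, and 5 of them fell (Cacna1a, Cacna1b, Cacna1e, Cacna1g and Cacna1h), where 13.7% of all genes fell. All 8 were also below 0 with plain library sizes and with RLE size factors. In RNA, in the fit over all 8 libraries, 2 of 9 tested Cacna1 genes rose (Cacna1a and Cacna1i) and 7 were not called, where 3.58% of all genes rose. The beta4 subunits Scn4b and Cacnb4 rose in both RNA and footprints. The main sodium channel pore genes of cortex, Scn1a, Scn2a1, Scn3a and Scn8a, were not called in any of the 3 comparisons with TMM scaling and every library kept. Scn1a and Scn2a1 were called higher in footprints with plain library sizes, and Scn2a1 was called lower in RNA within mice 1 to 4.

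**Figure D1:**
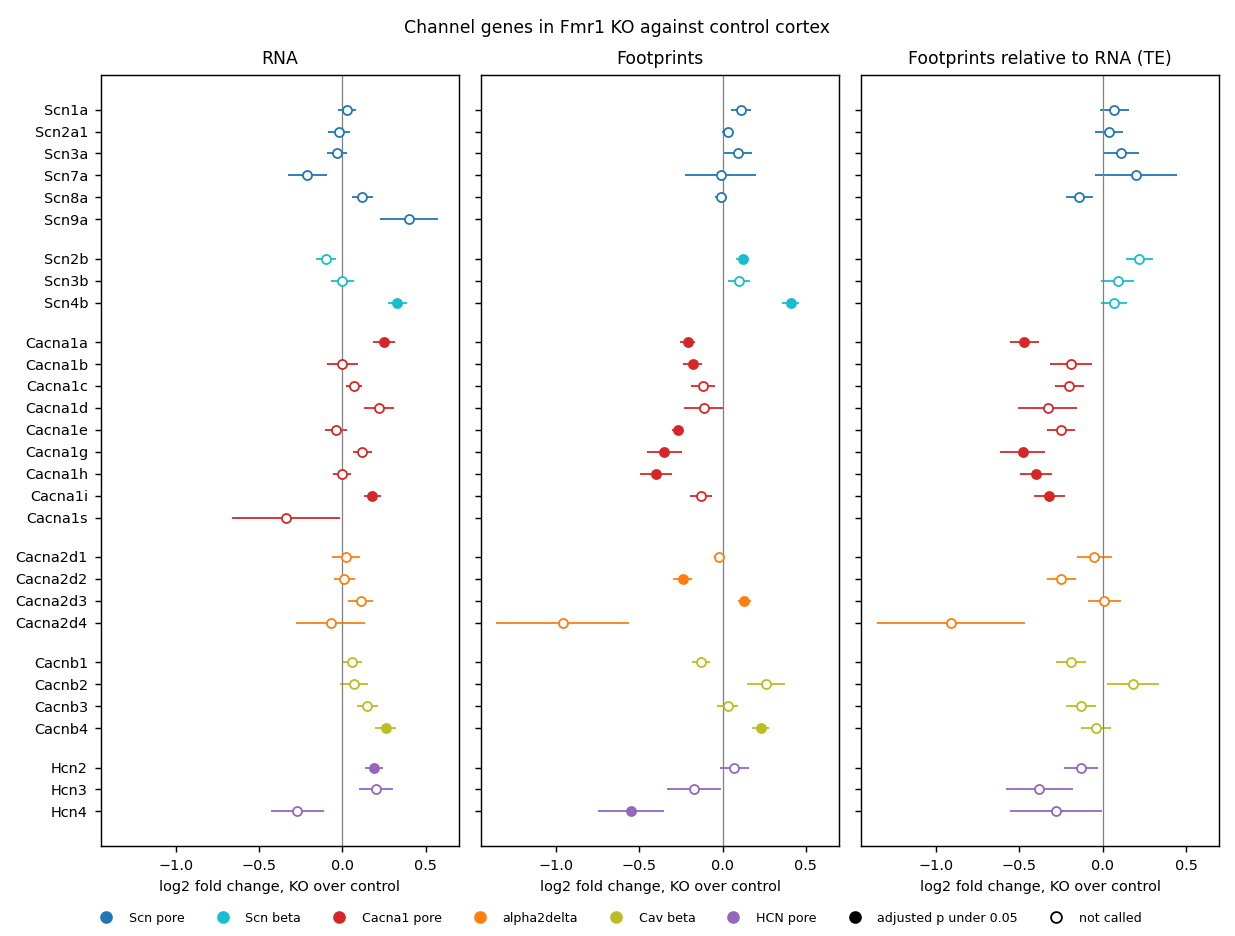
Log2 fold change, KO over control, with its standard error (bar) for tested channel genes in RNA (left), footprints (middle) and TE (right), coloured by subunit group, with filled points for an adjusted p under 0.05. In the middle and right panels all 8 Cacna1 points lie left of 0, while the sodium channel beta points of the middle panel lie right of 0.

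In RNA, 32 of the 36 genes had enough counts to be tested, and 5 of them (15.6%) were called at an adjusted p under 0.05 by edgeR's quasi-likelihood test, all 5 higher in KO. Over all 13507 genes tested the called share was 7.51%, with 3.58% higher and 3.94% lower. The calls were divided between 3 of 20 pore-forming genes and 2 of 12 auxiliary genes. The median log2 fold change of the 32 genes was 0.03. Excitatory neuron markers moved the same way in these libraries, with 8 of 10 above 0, 2 called higher and a median of 0.14, and their part in the channel rises was not tested.

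Scn4b, the sodium channel beta4 subunit that is known for its part in resurgent current, had the largest RNA rise that was called. Its RNA level was 77.2, 77.2, 83.2 and 84.1 CPM in control mice 1, 3, 6 and 8 and 103, 100, 99.3 and 102 CPM in KO mice 2, 4, 5 and 7. Every KO library lay above every control library. The log2 fold change was 0.33 ± 0.056 (SE; 4 against 4 mice; edgeR adjusted p = 0.00344). Cacnb4, the calcium channel beta4 subunit whose loss underlies the lethargic mouse, was at 175, 190, 187 and 206 CPM in the controls and 236, 217, 240 and 215 CPM in the same order of KO mice. Its groups did not overlap either, and its log2 fold change was 0.26 ± 0.062 (edgeR adjusted p = 0.0208).

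Cacna1a encodes the pore of P/Q-type channels, the main calcium source for fast transmitter release. Its RNA was at 280, 284, 244 and 237 CPM in control mice 1, 3, 6 and 8 and at 319, 308, 299 and 315 CPM in KO mice 2, 4, 5 and 7, a log2 fold change of 0.25 ± 0.064 (edgeR adjusted p = 0.0299). Control mice 6 and 8 were the low libraries here, while mice 1 and 3 lay closer to the KO level. Cacna1i, a T-type channel pore gene, was at 168, 171, 168 and 166 CPM in controls and 186, 187, 203 and 187 CPM in KO, with KO mouse 5 above the others (log2 fold change 0.18 ± 0.051, edgeR adjusted p = 0.0442). The Cacna1i call was lost in the exon columns (0.13, edgeR adjusted p = 0.102), with title prefix as a block (edgeR adjusted p = 0.0650) and with no low count filter (edgeR adjusted p = 0.0521). Hcn2, the HCN pore gene with a broad expression through the brain, was at 161, 166, 172 and 175 CPM in controls and 190, 186, 206 and 190 CPM in KO (log2 fold change 0.19 ± 0.054, edgeR adjusted p = 0.0430). The control and KO libraries did not overlap in any of these 5 genes. Of the 32 channel genes tested in RNA this held for 7 (21.9%), and of all genes for 15.1%.

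**Figure D2:**
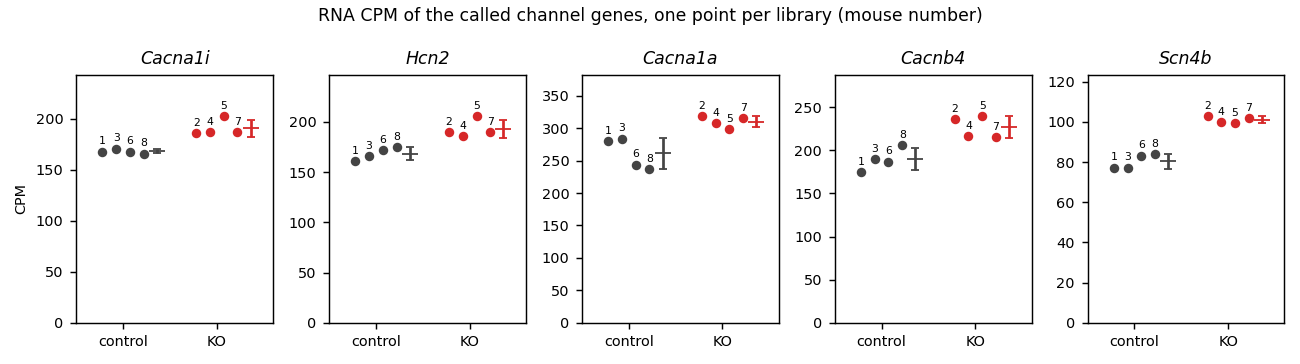
RNA level in CPM (vertical axis, from 0) of the 5 channel genes called in RNA, with one point per library numbered by mouse and the mean ± SD beside each group. KO points lie above control points in all 5 panels, and KO mouse 5 is the high point for Cacna1i at 203 CPM.

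These 5 rises did not pass the test when the closely similar libraries were summed (KO mice 2, 4 and 7 into 1 and control mice 1 and 3 into 1). The fitted values then were 0.31 for Scn4b, 0.27 for Cacnb4, 0.27 for Cacna1a, 0.21 for Hcn2 and 0.21 for Cacna1i, with edgeR adjusted p-values of 0.202 to 0.362, and the fit called 0.263% of all genes. An unadjusted p under 0.05 was reached there by 5 of the 32 channel genes. Within mice 5 to 8, which share a title prefix in the labels, the same genes had log2 fold changes of 0.27, 0.21, 0.35, 0.19 and 0.22 with edgeR adjusted p-values of 0.0876 to 0.417, and 0.423% of all genes were called. Within mice 1 to 4, 24.2% of all genes were called and 11 of the channel genes were, 7 higher and 4 lower, with Cacna1b, Cacna1e and Scn2a1 among the lower. Leaving out single libraries, Scn4b alone was called without KO mouse 2 or without control mouse 6. Without control mouse 1, KO mouse 4 or KO mouse 7, 2 of the 32 genes were called, without control mouse 3 it was 3, and without KO mouse 5 or control mouse 8 it was 6. The share of all genes called moved with these counts: it was 2.74% to 4.98% in the 6 fits that called fewer channel genes, and 10.7% and 13.2% without KO mouse 5 and control mouse 8.

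Promoter sequences are shown for the genes that rose in RNA and whose RefSeq entry lies wholly outside the span of its own gene, which left Scn4b, Hcn2 and Cacna1i. Each is the 250 bases before the annotated start on the strand of the gene, in build GRCm38.p6 from RefSeq: chr9:45138374-45138623 (plus strand) for Scn4b, chr10:79716384-79716633 (plus strand) for Hcn2 and chr15:80286988-80287237 (plus strand) for Cacna1i. Capitals mark a match, on either strand, to any of 5 motifs searched.
Scn4b: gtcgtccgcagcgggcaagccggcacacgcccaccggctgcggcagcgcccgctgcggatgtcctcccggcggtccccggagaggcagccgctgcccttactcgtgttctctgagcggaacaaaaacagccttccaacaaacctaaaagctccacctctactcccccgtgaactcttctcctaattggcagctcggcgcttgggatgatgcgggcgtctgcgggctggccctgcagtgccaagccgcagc
Hcn2: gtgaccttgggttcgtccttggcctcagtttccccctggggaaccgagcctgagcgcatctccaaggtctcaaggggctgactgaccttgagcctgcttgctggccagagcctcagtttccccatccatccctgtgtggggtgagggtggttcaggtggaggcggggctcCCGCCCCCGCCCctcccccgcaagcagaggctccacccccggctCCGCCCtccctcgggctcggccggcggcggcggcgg
Cacna1i: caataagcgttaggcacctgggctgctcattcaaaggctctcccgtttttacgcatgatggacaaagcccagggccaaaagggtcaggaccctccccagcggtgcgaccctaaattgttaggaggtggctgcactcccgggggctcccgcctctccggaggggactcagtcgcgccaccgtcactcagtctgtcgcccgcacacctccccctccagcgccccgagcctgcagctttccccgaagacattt
The Hcn2 window held 3 matches to the GC box GGGCGG, all read on the opposite strand and partly adjoining, and the windows of Scn4b and Cacna1i held no match to the 5 motifs. Entries were found for 26 of the 36 channel genes, in 36 windows (35 of the 36 symbols matched the RefSeq gene table directly and 1 as a synonym). The GC box was in 15 of these 36 windows and in 32.7% of all 32851 windows of the same length. The AP-1 site TGANTCA, present in 6.75% of all windows, and the cAMP response element TGACGTCA, present in 1.55%, were in 0 of the 36. The EGR site GCGTGGGCG was in 1, that of Scn7a (0.536% of all windows), and the TATA box TATAAA in 2, those of Cacna1d and Scn2a1 (12.4%). The median GC content was 58.8% in the channel gene windows and 52.4% in all windows.

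In footprints, 30 of the 36 genes could be tested and 12 (40.0%) were called, 4 higher and 8 lower. Over all 12158 genes tested the called share was 25.7%, with 12% higher and 13.7% lower, against 13.3% and 26.7% of the channel genes. With plain library sizes in place of TMM scaling the median of all genes moved from 0.006 to 0.066 on the log2 scale, the share of all calls that were higher went from 46.8% to 66.3%, and 14 channel genes were called, 8 higher and 6 lower. With TMM scaling, the pore-forming genes that were called all fell (7 of 18), and of the auxiliary genes 4 rose and 1 fell of 12. With DESeq2, 3 of the 18 pore-forming genes were called, and 15.0% of all genes. Whether these 2 sets of genes differ was not tested. The libraries of the 2 groups did not overlap in 13 of the 30 channel genes (43.3%) and in 37.3% of all genes.

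The sodium channel pore genes Scn1a, Scn2a1, Scn3a, Scn7a and Scn8a were not called in footprints with TMM scaling. Scn2a1, the main sodium channel pore of excitatory neurons, was at 410, 417 and 399 footprint CPM in control mice 1, 3 and 9 and at 408, 411 and 432 CPM in KO mice 2, 4 and 10 (log2 fold change 0.03 ± 0.032, edgeR adjusted p = 0.549). Scn8a, the pore that dominates at nodes and the distal axon initial segment, was at 336, 338 and 333 CPM against 323, 346 and 331 CPM (log2 fold change −0.01 ± 0.035). For both genes the groups overlapped. Scn1a, which in cortex is prominent in parvalbumin interneurons, had a log2 fold change of 0.11 ± 0.059 (edgeR adjusted p = 0.189), and Scn3a one of 0.09 ± 0.089 (edgeR adjusted p = 0.494). Scn7a, an atypical sodium channel gene, was at −0.01 ± 0.213. These pore genes share long similar stretches, and how reads with several matches were counted is not given in the sources used here, so counts could be divided between them.

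Of the sodium channel beta genes, Scn2b, Scn3b and Scn4b had positive fitted values in footprints, also under the other 2 scalings, and Scn2b and Scn4b rose. Scn4b went from 122, 117 and 113 footprint CPM in control mice 1, 3 and 9 to 159, 154 and 153 CPM in KO mice 2, 4 and 10. Its log2 fold change of 0.41 ± 0.051 (edgeR adjusted p = 1.66e-10) was the largest rise among the channel genes tested, and it was called in all 12 alternatives, with values of 0.38 to 0.47. Scn2b, a beta subunit linked to the pore by a disulfide bond, was at 226, 228 and 221 CPM against 244, 245 and 246 CPM. Its groups lay apart by a small step (log2 fold change 0.12 ± 0.040, edgeR adjusted p = 0.0163), while its RNA value was −0.10 ± 0.059 (edgeR adjusted p = 0.312). Without control mouse 9 the edgeR adjusted p of Scn2b was 0.0762 and without KO mouse 10 it was 0.0576, and the call was also lost with DESeq2 (adjusted p = 0.0910) and in the fit over all 14 libraries (edgeR adjusted p = 0.228). Scn3b was at 0.10 and was not called.

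Scn4b is also strongly expressed in striatum, so the striatal markers of the same libraries belong beside it. Of 8 striatal genes, 5 were higher and 1 lower in KO footprints (of all genes 12% and 13.7%), with a median log2 fold change of 0.20 and a summed level of 1358 to 1402 CPM in controls and 1521 to 1577 CPM in KO. In RNA 0 of the 8 were called by edgeR (2 at an unadjusted p under 0.05) and 0 by DESeq2, the median was 0.11, and the summed level was 839 to 944 CPM against 928 to 975 CPM. None of the 8 was at 0 throughout. Inhibitory neuron markers moved as well in footprints, where 4 rose and 1 fell of 9. The part of striatal tissue or of interneurons in the Scn4b result was not tested.

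The calcium channel pore genes had a median log2 fold change of −0.20 in footprints over the 8 tested, with a range of −0.40 to −0.11. Markers of oligodendrocyte precursors moved the same way in these footprint libraries: 5 of 8 fell (of all genes 13.7%), the median was −0.30, and the summed level was 649 to 660 CPM in controls and 513 to 537 CPM in KO. Neuron markers moved in both directions in footprints, where 12% of all genes rose. Of 10 excitatory neuron markers 3 rose and 2 fell, with a median of 0.07. Of 9 inhibitory neuron markers 4 rose and 1 fell, with a median of 0.20. The part of any of these markers in the Cacna1 results was not tested. Cacna1e, the R-type pore, gave the smallest p-value of the 8 Cacna1 genes. It was at 400, 391 and 387 CPM in control mice 1, 3 and 9 and at 323, 314 and 336 CPM in KO mice 2, 4 and 10. Every KO library was below every control library, and the log2 fold change was −0.27 ± 0.034 (edgeR adjusted p = 1.28e-10). The RNA of Cacna1e overlapped between the groups, at 400 to 481 CPM in controls and 422 to 474 CPM in KO (log2 fold change −0.04 ± 0.065, edgeR adjusted p = 0.792). Cacna1a footprints were at 195, 182 and 184 CPM against 162, 159 and 160 CPM, a log2 fold change of −0.21 ± 0.046 (edgeR adjusted p = 0.000122). The footprints of Cacna1a thus fell where its RNA rose in the fit over all libraries.

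Cacna1b encodes the N-type pore of presynaptic terminals. Its footprints were at 120, 118 and 123 CPM in control mice 1, 3 and 9 and at 105, 105 and 108 CPM in KO mice 2, 4 and 10 (log2 fold change −0.18 ± 0.056, edgeR adjusted p = 0.00824). Its groups did not overlap, yet its call was lost with plain library sizes (log2 fold change −0.12, edgeR adjusted p = 0.0870), with DESeq2 (adjusted p = 0.0607) and in the fit over all 14 libraries (edgeR adjusted p = 0.250). The L-type pore genes Cacna1c and Cacna1d, which couple calcium entry to gene expression, were at −0.12 ± 0.072 and −0.11 ± 0.120 and were not called.

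The 3 T-type pore genes, whose channels open near rest and support burst firing, had log2 fold changes of −0.40 to −0.13 in footprints. Cacna1h was at 42.8, 44.7 and 45.1 CPM in control mice 1, 3 and 9 and at 31.6, 36.6 and 32.5 CPM in KO mice 2, 4 and 10, with no overlap (log2 fold change −0.40 ± 0.094, edgeR adjusted p = 0.000498). Its RNA means were 80.4 ± 1.62 CPM and 80.3 ± 1.99 CPM (SD, 4 mice each). Cacna1g was at 41.2, 33.1 and 44.2 CPM against 32.1, 34.8 and 25.8 CPM, so that KO mouse 4 lay above control mouse 3 (log2 fold change −0.35 ± 0.105, edgeR adjusted p = 0.00724). Without control mouse 9 the Cacna1g value was −0.25 (edgeR adjusted p = 0.0963) and without KO mouse 10 it was −0.23 (edgeR adjusted p = 0.155), and with DESeq2 its adjusted p was 0.0703. Cacna1i, whose RNA rose, was at 91.3, 78.4 and 89.5 CPM against 87.7, 72.3 and 76.2 CPM with overlapping groups (log2 fold change −0.13 ± 0.068, edgeR adjusted p = 0.165). Of the calcium channel pore genes, the falls of Cacna1a, Cacna1e and Cacna1h were called in all 12 alternatives.

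The alpha2delta genes, the auxiliary family that includes the gabapentin targets, moved in both directions. Cacna2d2 fell, from 113, 112 and 114 footprint CPM in control mice 1, 3 and 9 to 94.1, 99.9 and 93.8 CPM in KO mice 2, 4 and 10 (log2 fold change −0.24 ± 0.058, edgeR adjusted p = 0.000891). Cacna2d3 rose, from 262, 261 and 247 CPM to 290, 279 and 275 CPM (log2 fold change 0.13 ± 0.038, edgeR adjusted p = 0.00486), and without control mouse 9 its edgeR adjusted p was 0.0625 and in the fit over all 14 libraries 0.290. Neither gene overlapped between the groups in footprints, and neither was called in RNA. Cacna2d1 was at 424 to 450 CPM in controls and 429 to 442 CPM in KO (log2 fold change −0.02 ± 0.032). Cacna2d4 had few counts, at 2.72 to 3.20 CPM against 0.951 to 2.24 CPM (log2 fold change −0.96 ± 0.399, edgeR adjusted p = 0.0653).

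Of the cytoplasmic calcium channel beta genes, Cacnb4 was the one called in footprints. It was at 127, 131 and 136 CPM in control mice 1, 3 and 9 and at 145, 162 and 155 CPM in KO mice 2, 4 and 10, and each KO library was above each control library. The log2 fold change of 0.23 ± 0.051 (edgeR adjusted p = 0.000201) was close to its RNA value of 0.26. Cacnb2 had a larger fitted value with a wider error (0.26 ± 0.114, edgeR adjusted p = 0.0842), at 23.1 to 24.6 CPM in controls and 26.0 to 30.7 CPM in KO. Cacnb1 was at −0.13 ± 0.052 (edgeR adjusted p = 0.0606) and Cacnb3 at 0.03 ± 0.064. The genes Scn4b, Cacnb4 and Cacna2d2 were the auxiliary genes called in footprints in all 12 alternatives.

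Among HCN genes, Hcn2, which rose in RNA, had overlapping footprints of 39.7 to 47.4 CPM and 43.8 to 51.1 CPM (log2 fold change 0.07 ± 0.088). Hcn4, the pacemaker isoform that is sparse in cortex, fell from 10.6, 9.52 and 10.7 CPM to 5.71, 8.53 and 6.72 CPM (log2 fold change −0.55 ± 0.200, edgeR adjusted p = 0.0327). Its groups did not overlap, but it was not called without control mouse 1 (edgeR adjusted p = 0.0749), KO mouse 2 (edgeR adjusted p = 0.164), control mouse 9 (edgeR adjusted p = 0.0768) or KO mouse 10 (edgeR adjusted p = 0.104), nor with plain library sizes (edgeR adjusted p = 0.0575), with DESeq2 (adjusted p = 0.147) or in the fit over all 14 libraries (edgeR adjusted p = 0.124). Hypothalamic markers moved with genotype in the same libraries (6 of 7 tested fell and 1 rose by edgeR, and 3 were called by DESeq2, where 13.7% of all genes fell and 12% rose by edgeR), from 116 to 125 summed footprint CPM in controls to 48.7 to 53.5 CPM in KO over 8 genes, and their part in the low Hcn4 value was not tested. Hcn3 was at −0.17 ± 0.162.

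**Figure D3:**
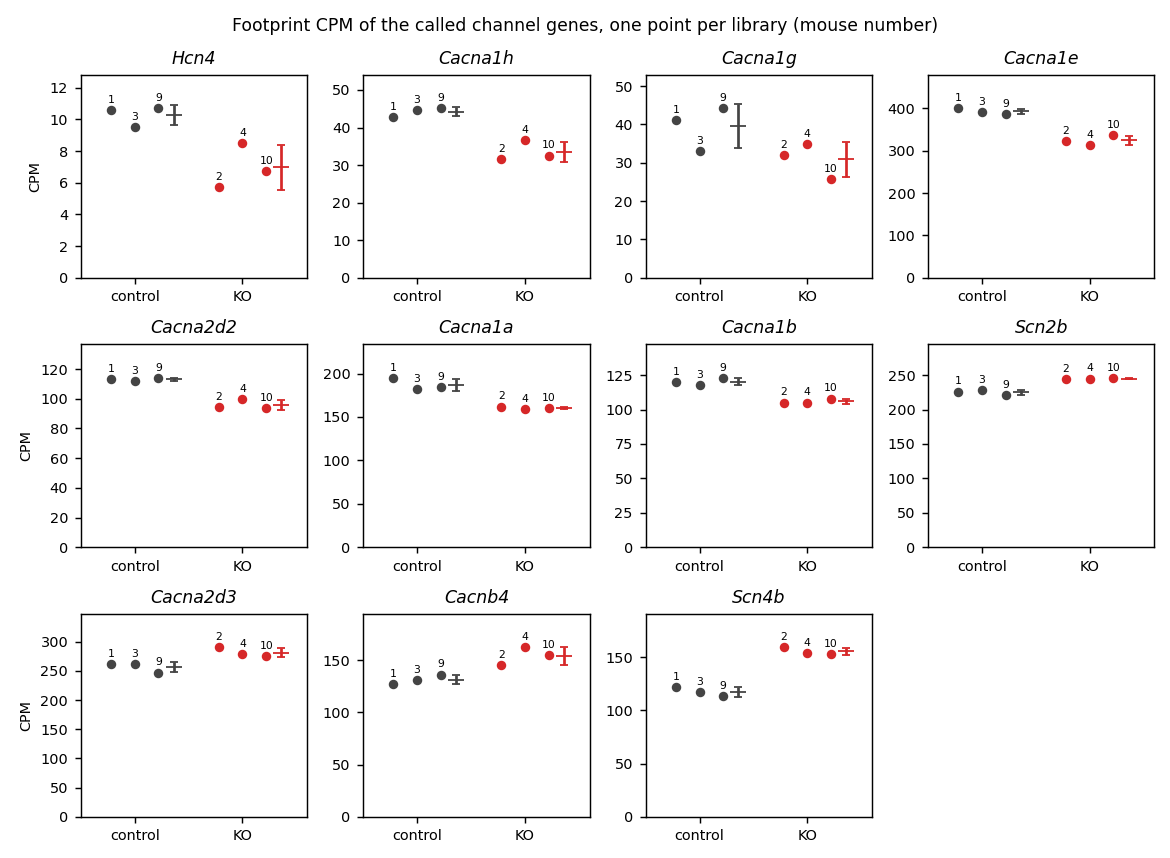
Footprint level in CPM (vertical axes, each from 0) of 11 channel genes called in footprints, with one point per library numbered by mouse and the mean ± SD beside each group. Control and KO points are separate in all panels but Cacna1g, where KO mouse 4 at 34.8 CPM lies above control mouse 3 at 33.1 CPM.

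For footprints relative to RNA, 4 of 30 channel genes (13.3%) were called, all 4 lower in KO and all 4 calcium channel pore genes. Of all 12145 genes tested 7.44% were called, with 3.22% higher and 4.22% lower. Cacna1a had a TE change of −0.47 ± 0.089 (edgeR adjusted p = 0.00196), Cacna1g one of −0.48 ± 0.134 (edgeR adjusted p = 0.0303), Cacna1h one of −0.40 ± 0.097 (edgeR adjusted p = 0.0130) and Cacna1i one of −0.32 ± 0.094 (edgeR adjusted p = 0.0399). The 8 tested Cacna1 genes were all below 0 (of all 12145 genes 6279 were), with a median of −0.33 and a range of −0.48 to −0.19. Among them Cacna1e at −0.25 ± 0.084 (edgeR adjusted p = 0.0758) was not called. With mouse as a replicate block the median of the 8 was −0.21. Within mice 1 to 4, the log2 ratio of footprint to RNA CPM was lower in both KO mice for Cacna1a, Cacna1d, Cacna1e and Cacna1h. It overlapped between the genotypes for Cacna1b (−0.81 and −0.83 in controls, −0.85 and −0.77 in KO), Cacna1c, Cacna1g and Cacna1i. In TE, 2 of 10 excitatory neuron markers and 2 of 8 oligodendrocyte precursor markers were also called lower and 0 of either higher. Their medians were −0.10 and −0.15. Other marker lists were divided. Of 9 inhibitory neuron markers 1 was called higher and 1 lower (median 0.14), and of 10 astrocyte markers 1 and 1 (−0.03). Of 10 oligodendrocyte markers 1 was called higher and 0 lower (0.15). Striatal, microglial and hypothalamic markers had 0 calls, with medians of 0.09, 0.17 and −0.12. The part of these markers in the Cacna1 values was not tested. For Cacna1a and Cacna1i the value combines a rise in RNA with a lower fitted footprint value, whereas for Cacna1h the RNA value was at 0 to 2 decimals. None of the auxiliary genes was called by edgeR (0 of 12, with 3 at an unadjusted p under 0.05) or by DESeq2 (0), and Scn4b and Cacnb4, which rose in both assays, were at 0.07 ± 0.078 and −0.04 ± 0.089.

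Cacna1a kept its TE call in all 18 alternatives, with values of −0.53 to −0.39. With mouse as a replicate block, which pairs the RNA and footprint libraries of mice 1 to 4, 15.1% of all genes were called but 1 channel gene was: Cacna1g was at −0.20 (edgeR adjusted p = 0.342), Cacna1h at −0.33 (edgeR adjusted p = 0.0743) and Cacna1i at −0.23 (edgeR adjusted p = 0.0933). The TE calls also turned on single libraries. Without KO mouse 10, Cacna1g was at −0.36 (edgeR adjusted p = 0.139), Cacna1h at −0.38 (edgeR adjusted p = 0.0503) and Cacna1i at −0.29 (edgeR adjusted p = 0.116), leaving 1 call. Without control mouse 1 or control mouse 9, Cacna1g (edgeR adjusted p = 0.0735 and 0.124) and Cacna1i (0.132 and 0.115) were lost. Without KO mouse 2, Cacna1g (edgeR adjusted p = 0.101) and Cacna1h (0.0953) were lost, and Cacna1i was lost without KO mouse 4 (0.181), control mouse 6 (0.0642) or KO mouse 7 (0.0570). With plain library sizes the share of all TE calls that were higher went from 43.3% to 67.9% and the median of all genes to 0.056. Of the channel genes 1 was then higher (Scn2b) and 2 lower.

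The level of footprints relative to RNA in control cortex is described here as log2(footprint CPM/RNA CPM) in control mice 1 and 3, with no test, and its order among the channel families depended on which RNA column was used. The median over all 12145 tested genes was −0.14 and that over the 30 channel genes −0.62, with 20 of the 30 below the former. The sodium channel pore genes had a median of −1.39, with 6 of 6 below the median of all genes, and Scn1a the lowest channel gene at −2.08. The Cacna1 genes were also low, with a median of −0.95 and 8 of 8 below that of all genes. The sodium channel beta genes Scn2b and Scn4b were at 0.63 each and Scn3b at 0.73, the highest of the channel genes. Alpha2delta genes were at 0.04, calcium channel beta genes at −0.56 and HCN genes at −0.07, while Hcn2 alone was at −1.91. With the exon columns as the RNA level, Scn2b, Scn3b and Scn4b were at −1.19, −0.92 and −0.95, and the median was −0.99 for sodium channel pore genes (6 of 6 below the median of all genes, which was −0.04) and −0.51 for Cacna1 genes (6 of 8). The gap between these beta genes and the sodium channel pore genes was thus not present in the exon columns, while the sodium channel pore genes were below the median of all genes with either column. Gene length drops out of this ratio only if both assays were counted over the same region, which the sources used here do not state, and no levels are compared between genes otherwise.

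**Figure D4:**
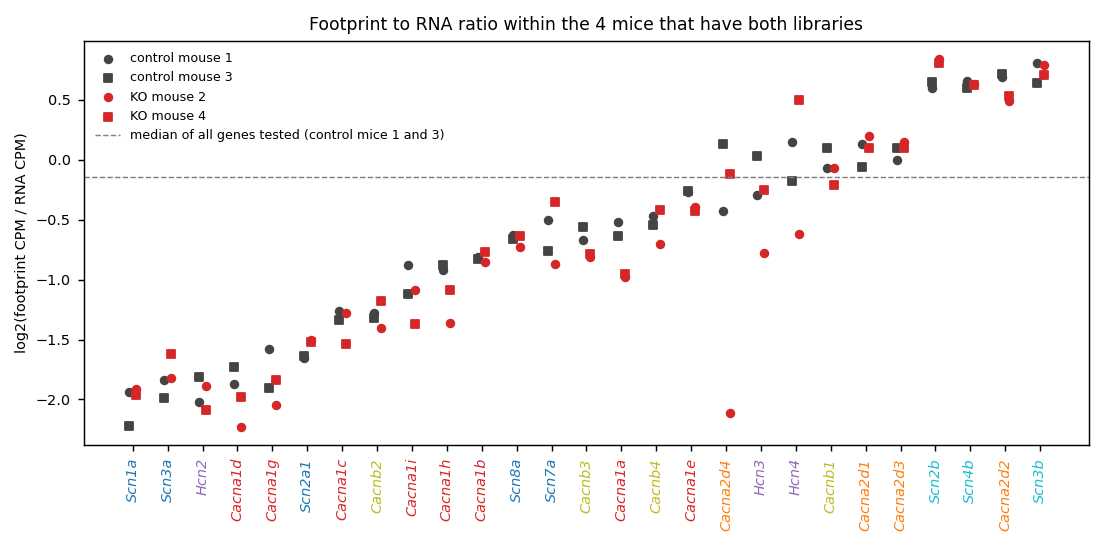
Log2 ratio of footprint CPM to RNA CPM (vertical axis) within control mice 1 and 3 (grey) and KO mice 2 and 4 (red) for tested channel genes, ordered by the control mean and coloured by family, with the median of all tested genes (−0.14) as a dashed line; the RNA column is the one without exon suffix. Sodium and calcium channel pore genes fill most of the left side, and Scn2b, Scn4b, Cacna2d2 and Scn3b lie at the right end; both KO points of Cacna1a lie below both control points.

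The remaining 6 genes had too few counts for a test in at least 1 assay. The skeletal muscle sodium channel gene Scn4a had 0 to 4 RNA counts per library, the sensory neuron genes Scn10a and Scn11a had 1 to 5 and 2 to 9, and the retinal calcium channel gene Cacna1f had 0 to 3. These 4 were tested in neither assay. Cacna1s, the skeletal muscle L-type pore, had 7 to 24 RNA counts, and its footprint counts were 3, 5 and 7 in control mice 1, 3 and 9 and 0, 0 and 2 in KO mice 2, 4 and 10, too few for a footprint test after filtering. In the fit with no filter Cacna1s was called lower, as the 1 channel gene added to the 12. Scn9a, a pore best known from pain neurons, had 34 to 76 RNA counts and 5 to 12 footprint counts, and its RNA value was 0.40 ± 0.177 (edgeR adjusted p = 0.186).

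Proteins that bind, anchor or regulate these channels were followed through a list of 40 symbols, of which 38 are in the table (2 symbols are second names of listed genes). In footprints 15 of 32 tested list genes were called, 4 higher and 11 lower (of all genes 25.7%, with 12% higher and 13.7% lower), with a median log2 fold change of −0.02 where that of all genes was 0.006. In RNA 5 of 34 were called, 3 higher and 2 lower (of all genes 7.51%), and with the similar libraries summed 0 were called by edgeR, with 7 at an unadjusted p under 0.05. In TE 5 of 32 were called, all 5 lower (of all genes 7.44%, with 4.22% lower). The list was chosen with earlier results of these data known.

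Anchors of the axon initial segment and node, which hold sodium channels in place, were among the genes whose footprints fell. Nfasc, the adhesion protein of that membrane, had a footprint log2 fold change of −0.32 ± 0.033, and Ank3, which encodes the ankyrin-G scaffold, one of −0.25 (edgeR adjusted p = 2.07e-09). Sptbn4, the beta-IV spectrin of the same sites, was at −0.27 in footprints and fell by 0.49 on the log2 scale in TE (edgeR adjusted p = 0.0216). In RNA the edgeR adjusted p-values of Nfasc, Ank3 and Sptbn4 were 0.630, 0.525 and 0.186. Rims1, a release site scaffold that binds calcium channels and their beta subunits, fell in footprints from 183 to 194 CPM in controls to 144 to 157 CPM in KO (log2 fold change −0.33 ± 0.047). Its RNA was at 406 to 472 CPM in controls and 475 to 548 CPM in KO (log2 fold change 0.20 ± 0.065, edgeR adjusted p = 0.0762). With the similar RNA libraries summed the RNA value was 0.21 (edgeR adjusted p = 0.414). The TE change of Rims1, −0.53 ± 0.091 (edgeR adjusted p = 0.000792), thus combined a higher fitted RNA value with a fall in footprints. Unc80, a large subunit of the sodium leak channel complex, fell in footprints from 212 to 223 CPM to 162 to 184 CPM, with RNA at 672 to 726 CPM in controls and 670 to 730 CPM in KO. Its TE change was −0.39 ± 0.076 (edgeR adjusted p = 0.00282).

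Calm2 and Calm3 encode calmodulin, the calcium sensor bound to calcium and sodium channel pores. Calm2 fell in RNA, from 1589 to 1718 CPM in controls to 1264 to 1322 CPM in KO, and in footprints, from 1446 to 1468 CPM to 1133 to 1183 CPM. The log2 fold changes were −0.34 ± 0.050 and −0.33 ± 0.022, and its TE value was 0.00. With the similar RNA libraries summed, the RNA values were −0.35 for Calm2 (edgeR adjusted p = 0.151) and −0.19 for Calm3 (edgeR adjusted p = 0.420). Calm3 fell as well, by 0.21 in RNA and by 0.14 in footprints on the log2 scale. Dpysl2, which encodes the collapsin response mediator that binds N-type channels, was at −0.11 in footprints (edgeR adjusted p = 9.76e-06).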

How the data were processed

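The deposited table holds raw counts per gene made by the authors for 8 RNA and 6 footprint libraries, and a further exon count for each RNA library; all values used are whole-number counts. Per the submitters' processing notes, Bowtie2, STAR 2.5, featureCounts and Subread 1.4.6 were used, with builds mm9 and mm10 named without a role. The counted region and strand setting are not given in the sources used here, so overlapping or antisense genes may share counts.

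KO and control were compared with edgeR 4.0.16 (R 4.3.3) by its quasi-likelihood test, with TMM scaling, a low count filter at 10 and Benjamini-Hochberg adjustment over all genes tested, separately for the 2 assays. TE was the interaction of genotype and assay over all 14 libraries. Errors are the log2 fold change divided by the root of its F statistic. CPM are TMM-scaled. Calls are an adjusted p under 0.05. The procedure was tested on simulated data. Alternatives were other scalings, no filter, DESeq2 1.42.0, single libraries left out, blocks by title prefix or mouse, exon counts, summed RNA libraries and mice 1 to 4 or 5 to 8 alone.

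Mice 1 to 4 pair the assays because the same animal gave both. The correlation of their deviations between assays was 0.003, 0.011, 0.034 and −0.013.

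The members and lists were chosen with earlier results of these data known. Some genes are not reported here by name, though counts over groups include them. Named genes are the other members, with every library for those called, and from the partner list up to 8 called in footprints or TE with the smallest p. Levels per coding length were planned and not computed, since no coding lengths were used here. A footprint to RNA ratio is given in their place.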

Additional observations from a re-analysis of the deposited data

Results flagged for a closer look

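In the RNA groups of 4 mice, 58 gene and group combinations were examined for a library far from the other 3. The measure was the gap from that library to its nearest neighbour as a share of the group's range, and 5 combinations stood out. In all 5 the library was KO mouse 5, as the highest. Chance alone would give about 2.90 only if the 4 libraries varied independently and alike. The KO libraries did not: the pairwise chi-square per degree of freedom was 1.18 to 1.32 among KO mice 2, 4 and 7. It was 5.64 to 6.02 for their pairs with KO mouse 5, so no excess over chance can be read from the count. For Scn2a1 the gap was 0.919 of the range, with KO mouse 5 at 1393 CPM and the other KO mice at 1157 to 1176 CPM. For Cacna1e it was 0.881 (474 CPM against 422 to 429 CPM) and for Cacna1i 0.931 (203 CPM against 186 to 187 CPM). The alpha2delta genes Cacna2d1 and Cacna2d3 gave 0.874 (523 CPM against 385 to 403 CPM) and 0.932 (329 CPM against 256 to 261 CPM). The 3 other KO libraries are those that differ little from each other.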

How the results depend on the processing

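The 5 channel genes called in RNA gave 85 values under alternatives, of which 53 kept direction and call, 32 lost the call and 0 changed sign. For the 12 footprint genes it was 122, 21 and 0 of 143, and for the 4 TE genes 48, 24 and 0 of 72. The count called in RNA was 0 with the similar libraries summed (of all genes 0.263%), 0 in mice 5 to 8 (0.423%) and 11 in mice 1 to 4 (24.2%). With single RNA libraries left out it was 1 to 6 (2.74% to 13.2%). In footprints it was 7 with DESeq2 (of all genes 15.0%), which gave 2 channel genes no adjusted p, and 8 in the fit over all 14 libraries (12.6%). With single footprint libraries left out it was 7 to 13 (20.7% to 23.4%), against 25.7% of all genes with every library kept. In TE it was 2 with RNA libraries summed (of all genes 4.21%) and 1 to 4 with single libraries left out (3.05% to 10.1%). With mouse as a replicate block it was 1 (of all genes 15.1%), also in mice 1 to 4 alone (1, of all genes 15.4%). With title prefix as a block, 4 genes passed in RNA, 13 for footprints and 3 for TE (of all genes 7.16%, 26.4% and 6.20%). The genotypes share no mouse numbers, so within 1 assay mouse could not be a block. The median footprint to RNA log2 ratio of the channel genes was −0.62, and −0.59 with the exon columns. The cause of these shifts was not tested. Depth limits the sparse genes: the footprint errors of Hcn4 and Cacna2d4 were 0.200 and 0.399, above the log2 changes of 0.12 for Scn2b and 0.13 for Cacna2d3 that were called.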

Other observations

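The RNA counts used above are a part of each gene's exon counts in the same table, and that part varied widely between these channel genes. Averaged over the RNA libraries it was 16.0% for Scn2b, 17.7% for Scn3b, 19.1% for Scn4b and 23.4% for Cacnb4, against 98.8% for Cacna1b and 97.1% for Cacnb1. For Cacna1e it was 52.1% and for Scn2a1 74.5%. Scn2b, Scn3b and Scn4b are also 3 of the 4 genes with the highest footprint to RNA ratios, and their log2 ratios became −1.19, −0.92 and −0.95 with the exon columns.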
